A study of Mus musculus with 25 samples.

Results

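Cells at the meiotic divisions were taken from Drop-seq libraries of whole mouse testis as barcodes that carried transcripts of 7 genes of the division program. Drop-seq pairs each cell with a barcoded bead in a droplet and counts every transcript captured at its 3′ end once, by its unique molecular identifier (UMI). A barcode was a member if it held at least 500 UMIs and at least 3 UMIs summed over Ccna1, Plk1, Aurka, Ccnb1, Kif23, Spc25 and Rfx8, if these made up at least 0.2% of its UMIs, and if the protamine and transition protein genes Prm1, Prm2, Tnp1 and Tnp2 made up less than 1%. The rule found 1150 members among the 23381 barcodes of that depth, of 36240 barcodes in the 15 libraries it covered and 48642 in all 25 libraries.

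Of the members, 867 came from 11 libraries of wild-type C57BL/6 males (WT), aged 3 to 9 months. Another 208 came from 2 libraries of Cul4a-/- males on the B6;129 background, which the labels put at 1 month and 18 or 21 days of age, and 75 from 2 libraries of C57BL/6 males that carried CNP eGFP BAC TRAP, put at 2 months and 14 or 16 days. The study's own sample list gives these ages the other way round, Cul4a-/- with the older pair and CNP with the younger, so the ages of both groups are uncertain. The study's methods name the substrain of the WT and CNP males as C57BL/6J. In this transgene an artificial chromosome with the regulatory sequence of Cnp, a gene of myelinating glia, drives a tagged ribosomal protein. The 6 libraries of Mlh3-/- testes, which stop in meiotic prophase, served as a comparison only. They came from males aged 2 months and 21 days to 8 months and 30 days on a background given as B6;129 in the labels and as a B6.129 line in the methods. The enzymatically dissociated libraries WT1 and WT2 held 2 and 8 members, so comparisons used the 9 mechanically dissociated libraries WT3 to WT11, with 56 to 160 members each. All mutant libraries were mechanical. WT3 alone among these 9 was read on a MiSeq. No wild-type library of the B6;129 background was analysed here, and every WT library is older than both mutant groups on either account of their ages, so genotype, strain and age cannot be told apart in the Cul4a-/- comparison. Nothing in the labels ties libraries to litters or days, and p-values measure the spread between libraries.

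In male meiosis, spermatocytes complete a long prophase, in which homologous chromosomes pair and recombine, and then divide at meiosis I and meiosis II without copying their DNA in between. Entry into division is driven by cyclin-dependent kinase 1 with its cyclins, spindles are built with Aurora and Polo-like kinases and kinesins, and the anaphase-promoting complex ends each division by marking cyclins and securin for destruction. Secondary spermatocytes, the cells between the divisions, are short-lived and soon become round spermatids. The X and Y chromosomes are silenced as a body during pachytene, and part of their genes are transcribed again in round spermatids.

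The rule genes cover several steps of a division. Ccna1 encodes cyclin A1, a cyclin of male germ cells needed for the end of meiotic prophase, and Ccnb1 encodes cyclin B1, the partner of CDK1. Plk1 and Aurka encode Polo-like kinase 1 and Aurora kinase A, which build the spindle poles. Spc25 encodes a subunit of the NDC80 complex, which ties kinetochores to microtubules, and Kif23 a kinesin of the central spindle and midbody. Rfx8 belongs to the RFX family of transcription factors. Because these genes chose the members, their promoters are shown for 4 of them. The stretches run from 250 bases before to 30 bases after the annotated start (RefSeq, GRCm38.p6), each on the minus strand of the chromosome and written 5′ to 3′. Capitals mark TTTGAA, the core of the cell cycle homology region (CHR), and CCAAT, each searched on both strands, so that ATTGG is CCAAT on the other strand. Kif23 lies at chr9:61946770-61947049, Spc25 at chr2:69206184-69206463, Ccna1 at chr3:55055026-55055305 and Rfx8 at chr1:39720960-39721239.
Kif23: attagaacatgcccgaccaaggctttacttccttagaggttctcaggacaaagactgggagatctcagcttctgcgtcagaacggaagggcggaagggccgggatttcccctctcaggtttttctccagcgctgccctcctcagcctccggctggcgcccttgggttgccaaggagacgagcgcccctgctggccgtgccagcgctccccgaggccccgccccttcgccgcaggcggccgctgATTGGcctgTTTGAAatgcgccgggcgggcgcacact
Spc25: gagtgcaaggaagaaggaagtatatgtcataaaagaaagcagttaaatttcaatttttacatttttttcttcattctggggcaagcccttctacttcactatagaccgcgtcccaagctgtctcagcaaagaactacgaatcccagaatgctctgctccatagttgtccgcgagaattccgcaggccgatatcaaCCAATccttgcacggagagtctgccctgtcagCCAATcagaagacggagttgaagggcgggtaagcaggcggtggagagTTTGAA
Ccna1: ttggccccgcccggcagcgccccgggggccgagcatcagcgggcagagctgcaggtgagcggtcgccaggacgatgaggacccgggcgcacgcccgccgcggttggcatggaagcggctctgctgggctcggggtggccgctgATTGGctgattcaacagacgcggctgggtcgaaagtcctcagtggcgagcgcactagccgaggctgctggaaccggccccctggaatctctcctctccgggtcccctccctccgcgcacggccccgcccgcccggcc
Rfx8: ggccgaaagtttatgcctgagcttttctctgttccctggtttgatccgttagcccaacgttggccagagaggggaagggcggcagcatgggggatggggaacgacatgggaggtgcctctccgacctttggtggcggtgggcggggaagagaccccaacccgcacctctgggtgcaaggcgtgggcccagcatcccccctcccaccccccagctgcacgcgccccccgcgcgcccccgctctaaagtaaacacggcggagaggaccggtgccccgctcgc
Kif23 and Spc25 held both motifs, Ccna1 held CCAAT without TTTGAA, and Rfx8 held neither. Over windows of 300 bases, which reach 50 bases past the start, 4 of the 7 rule genes held TTTGAA (Plk1, Aurka, Kif23 and Spc25) and 6 held CCAAT. Of all 32851 promoters of that length, 17.9% held TTTGAA and 37.4% held CCAAT. Among 22 promoters of 19 mitotic kinesin and cytokinesis genes, 18 (81.8%) held TTTGAA, against 11 of 25 for spindle and kinetochore genes, 4 of 15 for genes of entry into M phase and 6 of 23 for the anaphase-promoting complex and separase. Lists described further on held it in 6 of 16 promoters (postmeiotic transcription control), 5 of 6 (Ssxb) and 2 of 11 (DUF622). The match is of letters only and does not show that a factor binds.

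By the choice of members, every rule gene was common in them. Ccna1 had a UMI in 79.8% of members, Aurka in 73.6%, Rfx8 in 69.1%, Plk1 in 57.7%, Ccnb1 in 53.8%, Kif23 in 45.6% and Spc25 in 36.1%. A single rule gene carried the choice in 8 members, 2 genes in 145, and all 7 were detected in 87. The median member held 6 rule UMIs, 0.290% of its total. Free RNA in droplets also gives UMIs to cells that do not make a transcript, so the same shares were taken in 4157 late-spermatid-marked barcodes, in which protamine and transition protein genes made up at least 5% of UMIs. There the shares ran from 1.71% for Spc25 to 6.37% for Ccna1, at a median of 1168 UMIs against 2013 in members. The threshold cut through a continuous range. 202 members held exactly 3 rule UMIs, while 201 barcodes that met the other conditions held 2. At the share threshold, 367 members lay between 0.2% and 0.25% and 430 barcodes lay just outside, between 0.15% and 0.2%. At the other end, 140 members had 0.5% to 1% of their UMIs over the 4 late spermatid genes, and 53 barcodes were outside with 1% to 2%.

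The label was checked with markers the rule did not use. Markers of pachytene spermatocytes (15 genes, among them the synaptonemal complex genes Sycp1 and Sycp3) outweighed markers of round spermatids (14 genes of the acrosome and sperm surface, among them Acrv1 and Izumo1) in 918 members (79.8%), and the reverse held in 159 (13.8%). Both lists reached 3 UMIs in 307 members (26.7%). Whether such a barcode held a cell between the stages or 2 cells was not tested. At least 2 UMIs over markers of spermatogonia, Sertoli cells, Leydig cells, macrophages or telocytes were found in 62 members (5.39%), 56 of them over the Sertoli list. That share was 13.4% in the pachytene-marked and 5.69% in the round-spermatid-marked barcodes described next, at similar median depths of 2076 and 1913 UMIs. By group it was 3.11% in WT, 4.00% in CNP and 15.4% in Cul4a-/- members. The median member of these groups held 1910, 1361 and 3907.5 UMIs, and the part of depth in these shares was not tested. By these markers most members lay nearer to pachytene spermatocytes than to round spermatids, so the name given to them does not separate late prophase from the divisions themselves. No barcode sequence was a member in more than 1 of the 15 libraries, which shared 716 barcode sequences over all pairs, and the sequences of 6 members occurred among all barcodes of another library.

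The share of members differed widely between wild-type libraries. In the 9 mechanical libraries they made up 6.02% ± 2.95 (SD) of barcodes with at least 500 UMIs, with the lowest share in WT5 (2.57%, 95% exact binomial interval 2.01 to 3.22) and the highest in WT4 (10.8%, 9.23 to 12.4). The intervals cover counting error only, and the spread between libraries was larger than them. The Cul4a-/- libraries held 3.91% and 3.38% members, inside the wild-type range (difference of the means -2.37 percentage points, two-sided exact permutation test p = 0.255, smallest p possible 0.0364). The CNP libraries held 9.68% and 10.7%, at the upper end of that range (difference 4.18, exact permutation p = 0.182).

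These shares depended on what they were shares of. Among barcodes with under 1% protamine and transition protein UMIs, which leaves out the late spermatids, members made up 18.0% ± 2.18 (SD, n = 9) in WT and 10.9% and 11.1% in the Cul4a-/- libraries. All 9 mechanical WT libraries then lay above both Cul4a-/- libraries (difference -7.03 percentage points, exact permutation p = 0.0364, the smallest possible). The CNP libraries held 16.2% and 12.7% on this denominator, and the sign of their difference turned (-3.59, exact permutation p = 0.145). Depth also differed. The median member held 3820 and 4000 UMIs in the Cul4a-/- libraries, 1673 and 1247 in CNP and 1453 to 2590 in the 9 WT libraries. With every barcode thinned to 500 UMIs before the rule was applied, 0.686% ± 0.206 (SD, n = 2) of Cul4a-/- and 1.28% ± 0.692 (SD, n = 9) of WT barcodes passed (exact permutation p = 0.0727). At 500 UMIs the 3 rule UMIs required are a larger share than 0.2%. The thinned rule was thus stricter than the rule at full depth and kept fewer barcodes. In the CNP libraries 1.94% and 5.48% passed, the second above every WT library (highest 2.89%; exact permutation p = 0.0727).

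**Figure D1:**
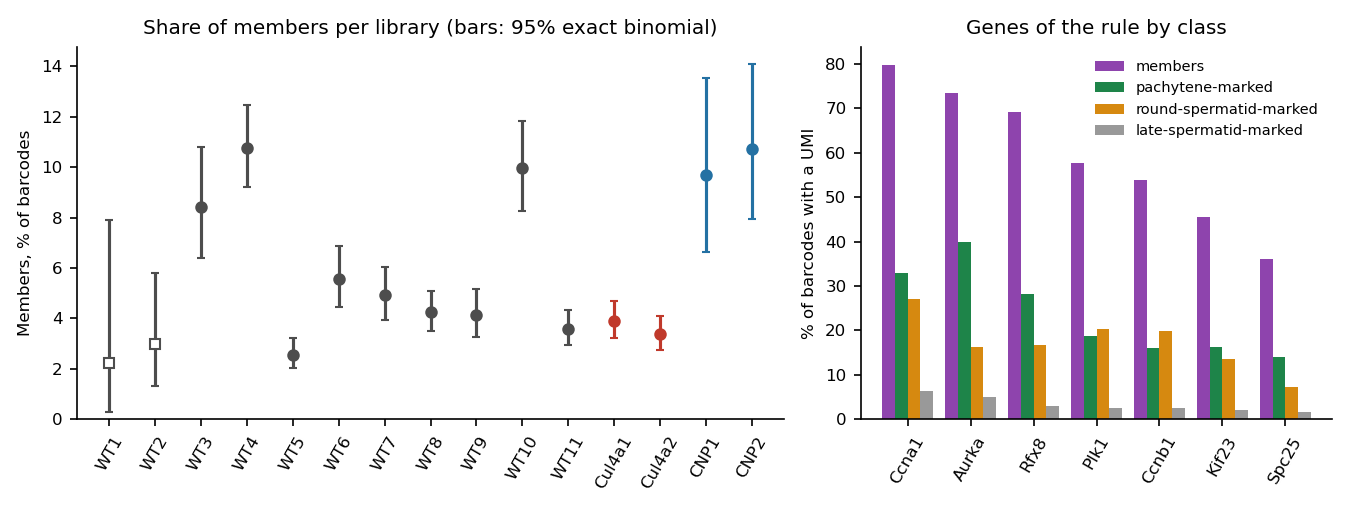
Left, members as percent of barcodes with at least 500 UMIs in each library, with exact 95% binomial intervals; open squares are the enzymatic libraries WT1 and WT2. Right, percent of barcodes with a UMI for each rule gene in members, pachytene-marked, round-spermatid-marked and late-spermatid-marked barcodes; the mechanical WT libraries run from 2.57% to 10.8%, and the late-spermatid-marked barcodes stay at 6.37% or less for every gene.

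To place the members between the stages on either side, they were compared within each WT library with pachytene-marked and with round-spermatid-marked barcodes. Pachytene-marked barcodes (2216) were deep barcodes that were no members, with at least 3 UMIs and 0.2% of UMIs over the pachytene list, more of it than of the round spermatid list and under 1% over the 4 late spermatid genes. Round-spermatid-marked barcodes (3003) met the same conditions with the lists exchanged. UMIs were summed per library and class, expressed as counts per 1000000 of that sum (CPM) and tested with edgeR's quasi-likelihood test with the library as block (TMM scaling, Benjamini-Hochberg adjustment over all genes tested, 9 pairs). The rule genes and the reference genes of each comparison were left out of the calls. Both comparisons share the same members, so their values are given side by side and the overlap between them was not tested.

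Against pachytene-marked barcodes, members had more of Cdc25a, Cenpe, Cdc27 and Ube2c and less of Cks2, Anapc4, Calm2 and mt-Cytb. Of 13581 genes tested, 27.7% were called, 10.8% higher and 16.9% lower in members, and the median log2 difference over all genes was -0.10. DESeq2 called 2465 genes in place of 3762. Under edgeR's own count filter, higher calls made up 49.3% in place of 39.0%, and with a class threshold of 0.5% they made up 51.2%.

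Of 17 genes of entry into M phase, 8 were higher and 3 lower, beside 10.8% and 16.9% of all genes tested. The median log2 difference was 0.13. The study names Cdc25a, Rgcc and Bora as key genes of a component (genes that vary together) of diplotene and the divisions. That component also holds the rule genes Ccna1, Plk1, Aurka and Ccnb1, and Fzr1, Tbpl1 and Dcaf7, given further on. It was drawn from these samples, so the direction of these genes is not independent evidence. Cdc25a encodes a phosphatase that activates cyclin-dependent kinases. Its level in members ran from 148 to 296 CPM (median 224) against 42.1 to 141 CPM (median 99.9) in pachytene-marked barcodes, and it was higher in members in 9 of 9 libraries (log2 difference 1.22, SE 0.12, adjusted p = 1.2e-23, edgeR). The lowest member library lay above the highest pachytene-marked one. Rgcc, a regulator of CDK1 activity, reached 66.0 to 223 CPM (median 162) in members and 41.4 to 91.5 CPM (median 63.8) in pachytene-marked barcodes, a log2 difference of 1.23 ± 0.14 (SE). Its ranges overlapped, though every pair had the same sign. Bora, an activator of Polo-like kinase 1, was higher by 0.91 on the log2 scale, Gsg2 (haspin, a histone H3 kinase) by 0.62, Ccnb2 (cyclin B2) by 0.56 and Cdk1 by 0.48. The Cdk1 difference held in 8 of 9 pairs.

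Those called lower also belong to the kinase machinery. Cks2, a small subunit that binds cyclin-dependent kinases, ran from 10.8 to 82.5 CPM (median 16.6) in members and from 107 to 289 CPM (median 150) in pachytene-marked barcodes, with no overlap (log2 difference -2.59, SE 0.18, adjusted p = 2.0e-45, edgeR). The highest member value, in WT3, stood apart from the others. Cdk2, the cyclin-dependent kinase of meiotic prophase telomeres, was lower in 9 of 9 pairs (10.7 ± 9.24 against 33.3 ± 14.7 CPM, mean ± SD, n = 9).

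Of 27 spindle and kinetochore genes, 3 were higher and 6 lower (median 0.05), beside 10.8% and 16.9% of all genes tested. The list as a whole thus lay near the share of all genes. The 3 were Cenpe, Incenp and Cenpf. Cenpe, the kinesin that moves chromosomes to the spindle equator, had 503 to 676 CPM (median 610) in members and 208 to 381 CPM (median 293) in pachytene-marked barcodes, 2.11-fold higher with no overlap (log2 difference 1.08, SE 0.08, adjusted p = 1.7e-42, edgeR). Incenp, the scaffold of the chromosomal passenger complex, was higher by 0.71 and Cenpf, an outer kinetochore protein, by 0.50. Those lower included the checkpoint gene Mad2l1, at 0 to 14.7 CPM (median 3.10) in members and 15.2 to 36.8 CPM (median 24.97) in pachytene-marked barcodes. Zwilch, another checkpoint gene, was lower by 1.07 on the log2 scale and Cdca8, which encodes the passenger subunit borealin, by 0.38. Incenp and Cdca8, which encode subunits of one complex, thus differed in opposite directions.

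Among 20 mitotic kinesin and cytokinesis genes 4 were higher and 3 lower (median 0.07), beside 10.8% and 16.9% of all genes tested. Kif22, the chromokinesin of chromosome arms, had 52.0 ± 8.49 CPM in members and 21.1 ± 8.02 CPM in pachytene-marked barcodes (SD, n = 9), and Kif20a (log2 difference 0.54) and Kif20b (0.34), kinesins of the central spindle, were also higher. Prc1, which bundles the central spindle microtubules, was lower in 9 of 9 pairs, at 232 to 472 CPM (median 354) against 316 to 681 CPM (median 547). Its ranges overlapped.

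Of 22 genes of the anaphase-promoting complex and separase, 5 were higher and 9 lower (median -0.29), beside 10.8% and 16.9% of all genes tested. Cdc27, a subunit that binds the complex's activators, had 162 to 317 CPM (median 231) in members and 68.4 to 143 CPM (median 109) in pachytene-marked barcodes, with no overlap (log2 difference 1.03, SE 0.11, adjusted p = 5.1e-18, edgeR). Ube2c, the ubiquitin-conjugating enzyme of the complex, was higher by 1.09, Anapc10 by 0.93, and its activators Fzr1 by 0.72 and Cdc20 by 0.29. Anapc4, a scaffold subunit, went the other way, from 31.6 ± 15.1 CPM in pachytene-marked barcodes to 2.74 ± 3.58 CPM in members (SD, n = 9), and it was lower in every pair. Of 17 cohesin and condensin genes, 3 were higher and 4 lower (median 0.08), beside the same shares of all genes. Smc3, a cohesin ring subunit, was at 118 ± 18.1 against 61.2 ± 17.0 CPM, and Smc4, a condensin subunit, at 1336 ± 276 against 1985 ± 304 CPM (SD, n = 9).

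Of 14 genes of postmeiotic transcription control, 3 were higher in members and 1 lower (median -0.01), beside 10.8% and 16.9% of all genes tested. The round spermatid reference genes helped to choose the pachytene-marked barcodes and give no finding in this comparison. Tbpl1, a TATA-binding protein relative needed by spermatids, was at 1473 ± 277 CPM in members and 1043 ± 148 CPM in pachytene-marked barcodes (log2 difference 0.48 ± 0.06, SE). Crem, the activator of spermatid genes, was higher by 0.39 and Rfx2, a regulator of cilium genes, by 0.34. The Rfx2 call was lost in 9 of 18 alternatives, among them without WT5, WT7, WT8 or WT11 (0.24 to 0.34). Beyond the lists, the genes of smallest p with one sign in all pairs included Prss39 (a testis serine protease, log2 difference 0.94), Aqp11 (an aquaporin, 0.81), Adad1 (a germ cell RNA-binding protein, 0.80), Tekt4 (a flagellar tektin, 0.99) and Dcaf7 (a WD-repeat adaptor, 1.02).

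The genes of smallest p that were lower in members with one sign in all pairs included mt-Cytb, Calm2, Tex101, Hnrnpa2b1, H3f3b and Malat1. The mitochondrial transcript mt-Cytb ran from 132 to 297 CPM (median 197) in members and from 398 to 1478 CPM (median 1104) in pachytene-marked barcodes. Calm2, one of the calmodulin genes, was at 870 ± 66.0 against 2438 ± 293 CPM (SD, n = 9), a log2 difference of -1.49. The groups did not overlap for either gene. Tex101, a surface protein of germ cells, had the steepest difference among the named genes of this comparison that were lower, 13.8-fold, from 357 ± 87.5 to 25.9 ± 15.3 CPM. Hnrnpa2b1 and H3f3b, which encode an RNA-binding protein and histone H3.3, were lower by 1.90 and 1.39 on the log2 scale, and the nuclear RNA Malat1 by 1.62. The study drew its list of respiratory chain genes from these samples, so the list is not independent evidence. Its results describe the component behind the list as most active near the time of the component of the divisions. Its methods list that component as technical. Of 42 nuclear genes of the respiratory chain, 30 were lower and 2 higher (median -0.43), beside 16.9% and 10.8% of all genes tested. Examples were Ndufb9 (178 ± 25.5 against 338 ± 48.3 CPM) and the testis cytochrome c gene Cyct (347 ± 67.3 against 543 ± 101 CPM), while Ndufa12 and Atpif1 were higher. Of 84 ribosomal protein genes, a list chosen after values were seen, 69 were lower and none was higher (median -0.50). Among markers of other cells, 2 of 8 Sertoli and 1 of 7 spermatogonial markers were called lower, near the share of all genes tested (16.9%). The summed Sertoli level was 44.9 to 140 CPM in members and 61.0 to 258 CPM in pachytene-marked barcodes. The spermatogonial level was 0 to 24.6 and 7.38 to 62.6 CPM. Of 6 Leydig markers, 0 were called by edgeR (0 at an unadjusted p under 0.05). The part of other cells in the differences of this comparison was not tested. These list counts were the same when library totals replaced TMM.

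Against round-spermatid-marked barcodes the differences were larger and the scaling mattered. Of 14422 genes tested 49.2% were called, 18.7% higher and 30.6% lower in members, with a median log2 difference of -0.22. With library totals in place of TMM, 4375 genes were higher and 3425 lower, so that higher calls made up 56.1% rather than 38.0%, and the median over all genes moved to 0.17. edgeR's own count filter gave 2789 higher and 2430 lower. Directions below are given where both scalings agree on the sign, unless said otherwise.

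The spindle and kinetochore list stood highest. Of 27 genes, 20 were higher in members and 1 lower (median 1.11; 21 and 1 with library totals). Cdca8, the borealin gene, ran from 188 to 371 CPM (median 239) in members and from 14.1 to 37.5 CPM (median 24.8) in round-spermatid-marked barcodes, 7.51-fold with no overlap (log2 difference 2.91, SE 0.15, adjusted p = 1.3e-87, edgeR). Sgol2, the shugoshin that guards centromeric cohesin through meiosis I, had 137 to 227 CPM (median 195) against 9.40 to 30.1 CPM (median 24.8). Casc5, the kinetochore scaffold KNL1, had 57.7 to 112 CPM (median 79.9) against 6.35 to 18.0 CPM (median 14.1). For all 3 genes every round-spermatid-marked library lay below the lowest member library. Cenpe, Cenpf and Incenp, which were also higher than in pachytene-marked barcodes, were higher by 1.09, 1.10 and 1.11 on the log2 scale here. For these 3 genes members thus had the highest level of the 3 classes, as with Cenpe at 608, 288 and 211 CPM in members, pachytene-marked and round-spermatid-marked barcodes (means, n = 9).

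**Figure D2:**
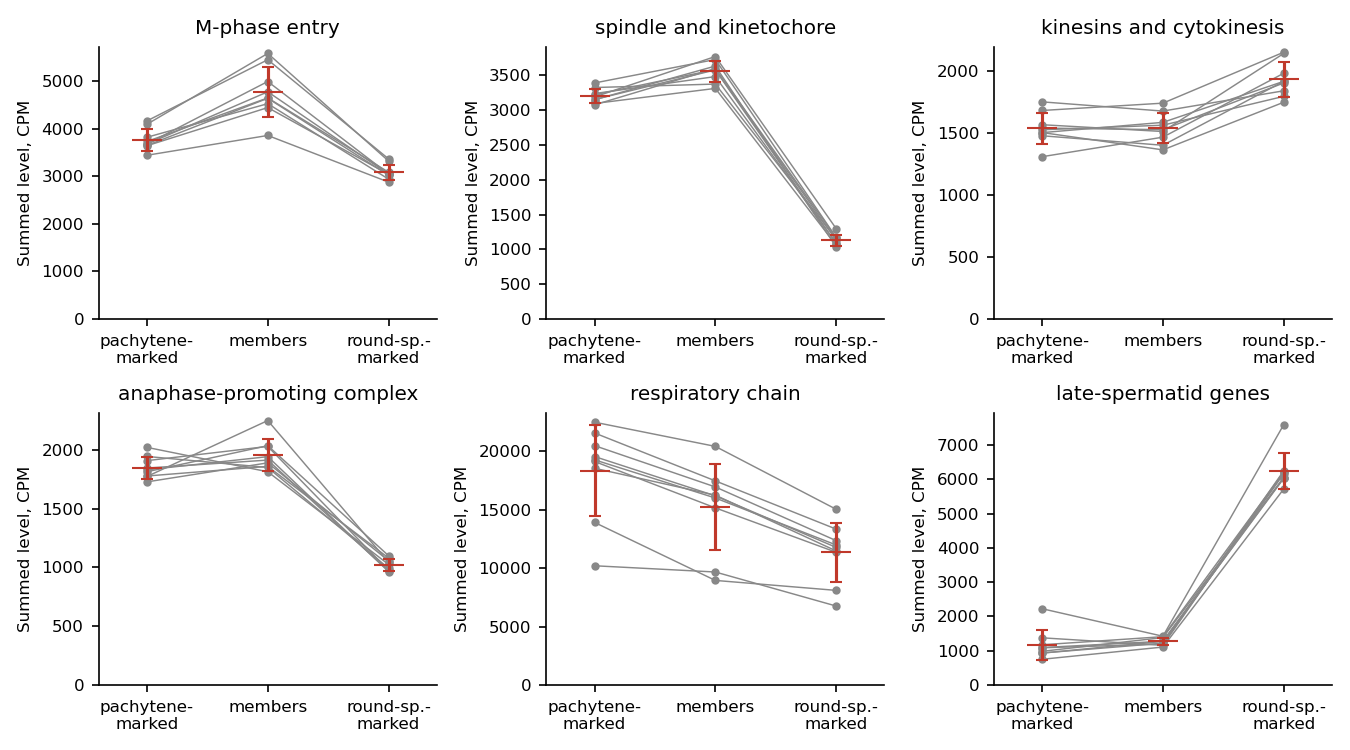
Summed level (CPM) of 6 gene lists in pachytene-marked barcodes, members and round-spermatid-marked barcodes; each line is 1 of the 9 mechanical WT libraries and red points are means with SD. The spindle and kinetochore sum falls from 3560 CPM in members to 1133 CPM in round-spermatid-marked barcodes.

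Of 20 mitotic kinesin and cytokinesis genes, 12 were higher than in round-spermatid-marked barcodes and 2 lower (median 0.87; 15 and 1 with library totals). Prc1 had 232 to 472 CPM in members and 42.04 to 76.7 CPM (median 55.0) there, and Cep55, which recruits the abscission machinery to the midbody, had 60.9 ± 17.6 against 8.02 ± 4.64 CPM (SD, n = 9). Kif2b, a microtubule-depolymerizing kinesin, went the other way, from 130 to 260 CPM (median 165) in members to 1247 to 1682 CPM (median 1394) in round-spermatid-marked barcodes (log2 difference -3.45, SE 0.07). Kif2b thus gave 1431 of the 1934 CPM of the summed list in round-spermatid-marked barcodes, and the summed level hides the lower level of the other motors there.

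Of 21 genes of the anaphase-promoting complex and separase, 10 were higher and 2 lower (median 0.48; 11 and 1). Pttg1, which encodes securin, the inhibitor of separase, was at 356 ± 70.9 CPM in members and 86.4 ± 16.1 CPM in round-spermatid-marked barcodes (SD, n = 9; log2 difference 1.65). It was lower than in pachytene-marked barcodes, by 0.21 on the log2 scale, a sign that turned with a class threshold of 0.5% (0.012) and a call lost in 7 of the other 17 alternatives. Cdc20 was higher by 1.52, and Fbxo43, the meiotic inhibitor of the complex also called Emi2, had 28.0 ± 12.9 against 2.51 ± 2.04 CPM. The subunit Anapc7 was higher by 2.92, whereas the subunit Cdc16 was lower by 2.79. Of 17 genes of entry into M phase, 7 were higher and 3 lower (median 0.21; 11 and 0). Cdk1 had 108 to 206 CPM (median 149) in members and 10.1 to 28.9 CPM (median 16.9) in round-spermatid-marked barcodes, 6.38-fold with no overlap. Nek2, a centrosome kinase, had 198 to 543 CPM (median 332) against 11.5 to 64.0 CPM (median 42.3). Gsg2 depended on the scaling, with a log2 difference of -0.11 (adjusted p = 0.047, edgeR) under TMM and 0.32 with library totals, and its CPM was higher in members in 9 of 9 pairs. Its call was lost in 14 of 18 alternatives.

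Cohesin and condensin genes divided (6 higher and 4 lower of 17, median 0.14; 9 and 4 with library totals). Ncaph, a condensin I subunit, was at 31.6 ± 8.43 CPM in members and 1.64 ± 2.22 CPM in round-spermatid-marked barcodes, while the meiotic cohesin gene Rec8 was at 24.4 ± 9.59 against 97.3 ± 16.8 CPM, Rad21 at 27.5 ± 14.5 against 103 ± 23.3 CPM and Smc3 at 118 ± 18.1 against 262 ± 25.05 CPM (SD, n = 9). The 3 cohesin genes were lower in members in 9 of 9 pairs.

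**Figure D3:**
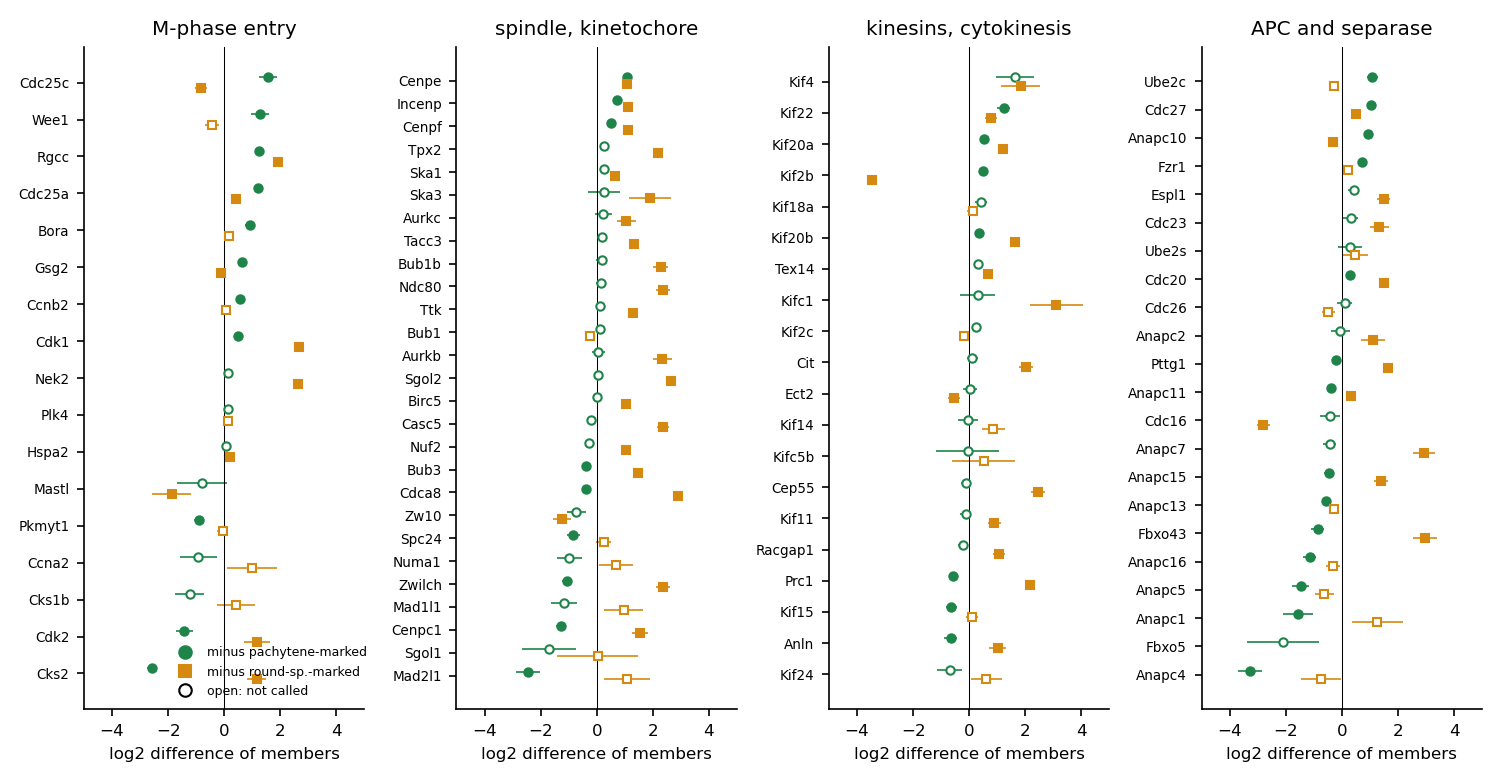
Log2 differences with SE (edgeR) for each gene of 4 lists, members against pachytene-marked (green circles) and against round-spermatid-marked barcodes (orange squares); open symbols did not pass an adjusted p of 0.05. The values include Cenpe at 1.08 and 1.09 and Kif2b at 0.49 and -3.45.

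Late spermatid genes were lower in members, and regulators of spermatid transcription depended on the scaling. Of 14 genes of postmeiotic transcription control, 9 were lower and 3 higher (median -0.64), but 7 and 7 with library totals. Fhl5 (ACT, the partner of CREM) ran from 24.9 to 54.2 CPM (median 39.3) in members and from 307 to 660 CPM (median 477) in round-spermatid-marked barcodes, 16.6-fold lower with no overlap (log2 difference -4.05, SE 0.12). Sox30 and Taf7l, a transcription factor and a TFIID subunit of germ cells, were lower by 2.09 and 2.42, and Crem by 1.09. Tbpl1 was higher than in both neighbours, here by 0.44. All 7 late spermatid genes outside the rule were lower (median -2.61). Among them were Smcp, a gene of the sperm mitochondrial capsule (655 ± 89.9 against 3297 ± 408 CPM), Oaz3, a testis antizyme (195 ± 37.6 against 964 ± 102 CPM), and Prm3 (78.4 ± 33.7 against 576 ± 232 CPM). Pabpc6 (2195 ± 142 against 312 ± 63.1 CPM), a poly(A)-binding protein gene, Slc2a3, a glucose transporter (536 ± 115 against 64.0 ± 19.4 CPM), and Diablo, an antagonist of apoptosis inhibitors (842 ± 112 against 134 ± 28.6 CPM), were among the genes higher in members with the smallest p. The 42 respiratory chain genes gave no direction here, with 5 higher and 11 lower under TMM and 27 higher and 2 lower with library totals. The 82 ribosomal protein genes turned in the same way, from 11 higher and 30 lower to 42 and 2.

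Transcripts of the X chromosome, silenced in pachytene, were few in members. UMIs of X-linked genes made up 0.337% ± 0.0467 of autosomal UMIs in members (0.245% to 0.399%), 0.247% ± 0.0556 in pachytene-marked and 1.37% ± 0.0935 in round-spermatid-marked barcodes (SD, n = 9). Members were above pachytene-marked barcodes in 9 of 9 libraries, by 0.0903 percentage points ± 0.0664 (SD; two-sided exact sign-flip permutation p = 0.0039, the smallest possible), and below round-spermatid-marked barcodes in 9 of 9, by 1.04 (same p). The difference from pachytene-marked barcodes was only 0.0066 in WT5 and 0.0033 in WT11. Pachytene-marked barcodes were also chosen to hold less of the round spermatid list than of the pachytene list, which members were not, and the part of this choice in the difference was not tested. The 614 X-linked genes detected in members together had 6868 UMIs, of which the testis gene Tsga8 gave 505 (7.35%), the fibrous sheath gene Akap4 222 and Ribc1 185. Of 14 sex-linked spermatid genes tested against pachytene-marked barcodes, 0 were called by edgeR (0 at an unadjusted p under 0.05, 0 by DESeq2; median 0.36), while 13 of 15 were lower than in round-spermatid-marked barcodes (median -2.81; 12 with library totals). Ube2a, which encodes a ubiquitin-conjugating enzyme of histones, was at 11.4 ± 7.48 against 132 ± 20.2 CPM in round-spermatid-marked barcodes, Cypt1 at 33.1 ± 17.8 against 304 ± 47.0 CPM and Cul4b, the X-linked cullin, at 20.7 ± 9.44 against 89.3 ± 17.2 CPM (SD, n = 9). The autosomal Cul4a went the other way along the stages. It was at 30.8 ± 8.99 CPM in members and 87.4 ± 17.2 CPM in pachytene-marked barcodes (log2 difference -1.45), as was Rbx1, the RING subunit of the ligase (79.3 ± 30.1 against 156 ± 40.7 CPM).

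Members were next ranked within each library by their round spermatid UMIs as a share of the UMIs of both reference lists and cut into 3 parts, each of 18 to 56 members. The ranking used transcripts of the same barcodes, so it orders members by stage-marker content and not by time. The classes on either side were chosen by other conditions on the same lists, and the part of these choices in a difference between a part and a class was not tested. X-linked UMIs rose over the parts, from 0.161% ± 0.0313 to 0.263% ± 0.0581 and 0.661% ± 0.0791 of autosomal UMIs (SD, n = 9). The uppermost part lay above the lowest in 9 of 9 libraries (difference 0.5005 percentage points). Round spermatid transcripts set the ranking, and X-linked transcripts were more frequent in round-spermatid-marked barcodes. The ranking thus favoured this order, which is given as a description. The uppermost part lay below the round-spermatid-marked barcodes in 9 of 9 libraries (difference -0.713, exact sign-flip permutation p = 0.0039). The lowest part lay below the pachytene-marked barcodes in 9 of 9 libraries (mean difference -0.0860). Having been picked for few round spermatid UMIs, it is set beside them as a description. The median depth of the parts was 1779, 2509 and 1787 UMIs.

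2 gene families, DUF622 and Ssxb, reached their highest levels in the uppermost members. The DUF622 genes are a rodent family that spread by duplication and includes the Speer genes, and its 18 genes here were picked by the study from these samples. The 8 Ssxb genes, X-linked relatives of the SSX genes, are those the study picked and further members of the family. The direction of both lists is therefore not independent evidence. Genes of both families share near-identical copies, so counts of single genes are uncertain. Of 18 DUF622 genes, 14 were higher than in pachytene-marked barcodes and none was lower (median 1.02; DESeq2 called 7). BC061237 had 49.5 to 98.7 CPM (median 70.5) in members against 14.2 to 64.0 CPM (median 39.4) in pachytene-marked barcodes and 166 to 214 CPM (median 186) in round-spermatid-marked barcodes. Against the latter, 9 genes were lower and 2 higher (median -0.57; 4 and 3 with library totals), with Gm8232 among the higher ones (10.9 ± 7.45 against 1.78 ± 1.93 CPM).

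Over the 3 parts of the ranking, the summed DUF622 share went from 0.0174% ± 0.0102 to 0.0436% ± 0.0156 and 0.114% ± 0.0122 of all UMIs (SD, n = 9). The lowest part was under the pachytene-marked barcodes (0.0264%) in 7 of 9 libraries (mean difference -0.0090, a description), and the uppermost was above the round-spermatid-marked barcodes (0.0848%) in 9 of 9 (difference 0.0290, exact sign-flip permutation p = 0.0039). The summed Ssxb level went from 11.4 ± 9.24 to 39.4 ± 30.8 and 169 ± 62.9 CPM. The uppermost part was again above the round-spermatid-marked barcodes (79.5 ± 23.4 CPM) in 9 of 9 libraries (difference 89.7 CPM, exact sign-flip permutation p = 0.0039), and the lowest was below the pachytene-marked barcodes (34.3 ± 10.2 CPM) in 8 of 9. Of the 5 classes compared, both families were highest in the uppermost members, while the X-linked share as a whole was still below that of round spermatids there. The lists came wholly or in part from the study's choice in these samples, so these p-values are not independent evidence. Of the 7 Ssxb genes tested, Ssxb1 alone was called higher than in pachytene-marked barcodes (28.3 ± 11.6 against 14.4 ± 7.33 CPM, log2 difference 0.76, adjusted p = 0.043, edgeR). That call was lost in 10 of 18 alternatives, among them DESeq2 and without WT3, WT5, WT6, WT7, WT8 or WT10 (0.65 to 0.80).

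**Figure D4:**
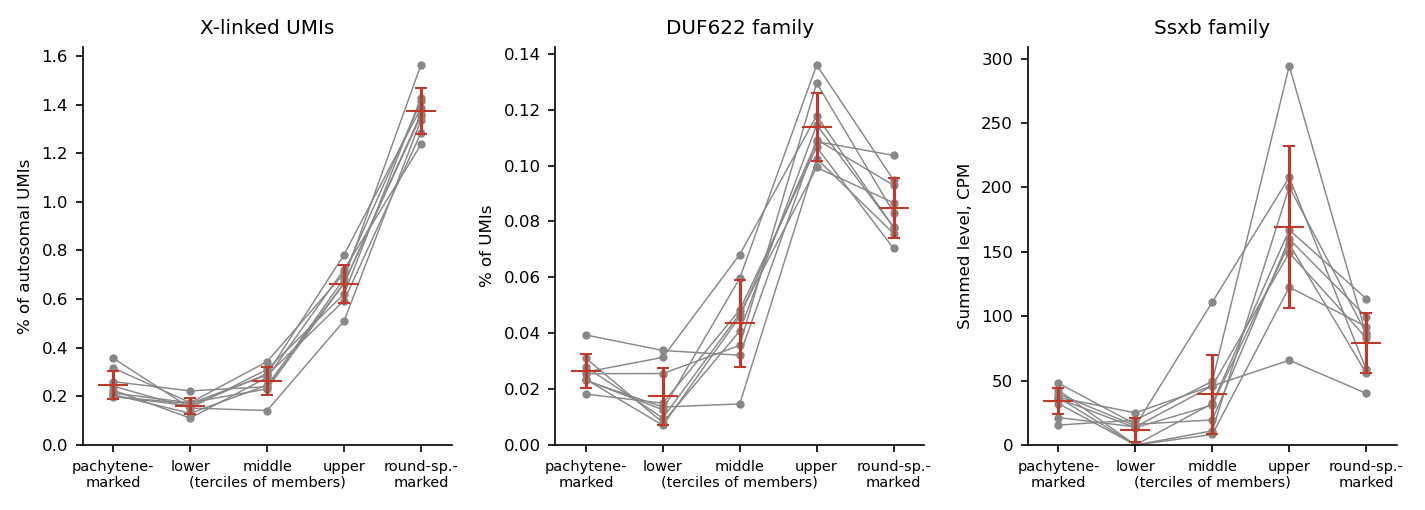
X-linked UMIs as percent of autosomal UMIs, DUF622 UMIs as percent of all UMIs, and summed Ssxb level in CPM, in pachytene-marked barcodes, in members ranked low, middle and high by round spermatid markers, and in round-spermatid-marked barcodes of 9 WT libraries. DUF622 and Ssxb are highest in the high-ranked members (0.114% and 169 CPM), while the X-linked share is highest in the round-spermatid-marked barcodes (1.37%).

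The summed levels of the division lists along the same ranking are given as a description. From the lowest to the uppermost part the summed spindle and kinetochore level went from 4011 to 3874 and 2555 CPM, the genes of the anaphase-promoting complex from 2090 to 2032 and 1683 CPM and cohesin and condensin from 3251 to 2981 and 2492 CPM (means, n = 9). Late spermatid genes outside the rule went from 780 to 1058 and 2201 CPM. The rule genes, given as a description, did not move together. Ccna1 went from 817 to 725 and 635 CPM and Spc25 from 228 to 211 and 128 CPM, while Plk1 went from 331 to 377 and 405 CPM and Ccnb1 from 318 to 373 and 421 CPM. The mutant libraries showed the same order of X-linked shares from the lowest to the uppermost part, from 0.151% to 0.614% and from 0.218% to 0.547% in Cul4a-/-, and from 0.192% to 0.825% and from 0.108% to 0.727% in CNP, whose parts held only 5 to 24 members.

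Mlh3-/- testes have few or no cells past prophase, and 162 of their barcodes met the thresholds. They were 26, 2, 11, 30, 19 and 74 in the 6 libraries. This was 5.11%, 0.692%, 1.38%, 2.93%, 1.65% and 4.49% of barcodes with at least 500 UMIs. The shares 5.11%, 2.93% and 4.49% lay inside the range of the mechanical WT libraries (2.57% to 10.8%). The others lay below it. Among barcodes with under 1% protamine and transition protein UMIs the shares were the same, all below the lowest mechanical WT library (15.1%). Passing the rule alone thus does not show a dividing cell. Of the barcodes that met the thresholds, 20, 1, 11, 10, 7 and 23 also held at least 2 UMIs over markers of spermatogonia or somatic cells. In the 5 libraries with at least 10 such barcodes, the DUF622 share was 0.0005% ± 0.0006 (SD) against 0.0545% ± 0.0094 in the 9 WT libraries, with no overlap (two-sided exact permutation p = 0.000999, the smallest possible). The study picked this list from these samples, Mlh3-/- cells included, for a component of diplotene and the divisions. The p-value is therefore not independent evidence. Only 9 DUF622 UMIs were found in all 162 barcodes, 2 and 7 in the last pair of libraries. The X-linked share was 0.337% in WT members and 0.233% ± 0.181 in the Mlh3-/- barcodes (exact permutation p = 0.128). Library by library the Mlh3-/- shares were 0.436%, 0.530%, 0.419%, 0.164%, 0.0691% and 0.0781%, and without the barcodes that held other cells' markers only 3 libraries kept at least 10, with a difference from WT of 0.259 percentage points (exact permutation p = 0.0091, the smallest possible for 3 against 9). As a description, barcodes of the arrested testes reached the division thresholds nearly without DUF622 transcripts.

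Members of the mutants were compared with WT members in 1 edgeR fit of the 13 mechanical libraries with at least 10 members, so both comparisons share the WT libraries and are given separately. Cul4a encodes a scaffold of a ubiquitin ligase. Of 12441 genes tested, 8.66% were called in Cul4a-/- members, 6.73% higher and 1.93% lower, with a median log2 difference of 0.09. With library totals the higher calls made up 56.2% of all calls in place of 77.7%. Higher calls made up 67.2% of DESeq2's calls and 56.3% under edgeR's own count filter. Cul4a itself was not lower (32.4 and 49.5 CPM against 16.5 to 43.4 CPM in WT, median 30.2, adjusted p = 0.41, edgeR). Drop-seq reads 3′ ends and the deleted part was not given in the sources used here, so this does not check the labels.

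Grtp1, a gene of the TBC GTPase-activator family that lies 24.082 kb from Cul4a (chr8:13172022-13200620, GRCm38), was nearly absent from Cul4a-/- members, with 0 and 1.77 CPM against 274 to 503 CPM (median 334) in WT. The ratio of 1 to 717 UMIs, scaled to depth, was 0.00248 (95% counting interval 6.3e-05 to 0.0139). All barcodes of those libraries together held 16 of its UMIs. Rps13-ps1 was at 303 and 331 CPM and had no UMI in WT members, at least 222-fold higher against a floor of 3 counts over the WT members. It is a pseudogene of Rps13 (266 and 290 CPM in Cul4a-/- and 196 to 1006 CPM in WT members) and can share reads with it. Tagln2, an actin-binding protein gene, had 77.8 and 74.3 CPM against 0 to 5.71 CPM (ratio of UMIs 53.5, 95% counting interval 17.7 to 264), and Dapp1, a signaling adaptor gene, had 2 UMIs against 196 (ratio 0.0182, 0.0022 to 0.0666). For these 4 genes both Cul4a-/- libraries lay outside every WT library. Over all barcodes, Rps13-ps1 was at 252 CPM in Cul4a-/- and 0.24 CPM in WT libraries (means, n = 2 and 9). Tagln2 was at 34.6 and 1.32 CPM there, and Dapp1 at 0.67 and 43.9 CPM. The differences were thus not particular to members.

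Within the division lists, 1 of 26 spindle genes, 1 M-phase gene and 2 of 21 genes of the anaphase-promoting complex were called higher in Cul4a-/- members and 1 of 20 kinesin genes lower, beside 8.66% of all genes. Pttg1 was at 637 and 569 CPM against 223 to 471 CPM in WT (median 357; log2 difference 0.91, SE 0.17, adjusted p = 4.9e-06, edgeR), with no overlap. Rgcc was at 293 and 304 CPM against 66.0 to 223 CPM (log2 difference 1.13) and the survivin gene Birc5 at 368 and 424 CPM against 247 to 342 CPM (0.58). Kif2b was lower, at 61.6 and 83.1 CPM against 130 to 260 CPM (log2 difference -1.10). 0 of 18 DUF622 and 0 of 7 Ssxb genes were called by edgeR (1 of each list at an unadjusted p under 0.05, 0 by DESeq2). Ddb1, the adaptor that joins CUL4 to its substrate receptors, was at 139 and 129 CPM against 54.2 to 126 CPM in WT (log2 difference 0.70). Its call was lost in 10 of 22 alternatives, among them DESeq2, library totals and without WT9, WT10 or either Cul4a-/- library (0.61 to 0.74). Izumo1 and Acrv1 were among 6 of 14 round spermatid reference genes that were lower (log2 differences -1.56 and -1.08). The Birc5 and Izumo1 calls were lost in 8 and 7 of 22 alternatives. The X-linked difference between members and pachytene-marked barcodes was 0.0037 and -0.0016 percentage points in the Cul4a-/- libraries against 0.0903 ± 0.0664 (SD, n = 9) in WT (exact permutation p = 0.0727).

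Genes of the respiratory chain, a list the study drew from these samples and so no independent evidence, stood apart in Cul4a-/- members. The study's methods list the component behind this list as technical. They do the same for its Cul4a-/- component, which holds Tagln2, though its results tie that component to the mutant. A technical part in these differences was not tested. Of 42 genes tested, 36 were higher and none was lower (median 0.86; 30 with library totals, 8 by DESeq2). The summed level was 23663 and 23815 CPM in the Cul4a-/- libraries and 8950 to 20417 CPM in WT, where WT4 and WT5 stood lowest. With both left out 34 genes were higher (median 0.69). Cox8c, a testis subunit of cytochrome c oxidase, was at 2944 and 2839 CPM against 951 to 2169 CPM (median 1970), Uqcc2, a complex III assembly factor, at 1257 and 1439 CPM against 386 to 882 CPM (median 763), and Atp5e, an ATP synthase subunit, at 392.1 and 337.7 CPM against 62.8 to 289 CPM (median 146). Both mutant libraries lay above every WT library for these 3 genes. Of 80 ribosomal protein genes, a list chosen after values were seen, 46 were higher and 1 lower (DESeq2 called 4). The shares of all genes tested were 6.73% and 1.93%. Ribosomal protein UMIs made up 2.57% and 2.71% in Cul4a-/- members, inside the WT range of 1.36% to 3.83%. Of the 837 genes called higher 111 were annotated pseudogenes, whose share of all genes tested was not taken. Pseudogene UMIs made up 0.989% and 0.966% in Cul4a-/- members and 0.549% to 0.661% in WT members. Over all barcodes they made up 1.03% and 1.00% against 0.622% to 0.772%, so the difference was not particular to members. The make-up of the members differed too, since round spermatid markers outweighed pachytene markers in 5.74% ± 1.048 (SD, n = 2) of Cul4a-/- members and 15.6% ± 5.18 (SD, n = 9) of WT members. Of 6 Sertoli markers tested, 2 were called higher (Cst12 at 32.4 and 38.9 CPM against 0 to 33.0 CPM, and Aard), and the summed level of the list was 151 and 159 CPM against 44.9 to 140 CPM in WT members. With members thinned to 500 UMIs, 62 genes were called in place of 1077. The part of make-up in these differences was not tested.

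CNP members differed in few genes by this test. It called 0.868% of genes, 0.0402% higher and 0.828% lower, over a median log2 difference of -0.22 (-0.12 with library totals). The 5 higher genes were Nkiras2, Dnajc7, Ttc25, Aldh1l1 and Ruvbl2. Nkiras2, an inhibitor of NF-kappa-B signaling, was at 630 and 575 CPM against 99.0 to 193 CPM in WT (median 169), with no overlap (log2 difference 1.82, SE 0.23, adjusted p = 3.4e-12, edgeR). Dnajc7, a co-chaperone gene, was at 740 and 435 CPM against 166 to 265 CPM (median 248.9) and Ttc25, a gene of ciliary dynein docking, at 910 and 823 CPM against 319 to 517 CPM (median 373). The 3 genes neighbour Cnp on chromosome 11 (GRCm38): Dnajc7 overlaps it, Ttc25 lies 2.336 kb and Nkiras2 27.515 kb from it. Their levels also lay above WT in the other classes of the CNP libraries, with Nkiras2 at 505 ± 63.7 CPM (SD, n = 2) against 161 ± 18.4 CPM (SD, n = 9) in pachytene-marked and at 258 ± 72.6 against 87.2 ± 19.5 CPM in round-spermatid-marked barcodes. Cnp itself had 5 UMIs in WT and 2 in CNP members, sums that differ in depth. Scaled to depth, its level was 0 to 8.25 CPM in WT members and 8.51 and 15.5 CPM in CNP members. Over all barcodes it was 0 to 6.21 CPM in WT and 2.84 and 7.74 CPM in CNP libraries. The pachytene-marked barcodes of the CNP libraries had no UMI of it, and those of WT had 7. With so few UMIs, no direction is given for Cnp.

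Of the 103 genes lower in CNP members 52 were ribosomal protein genes, of 80 tested (none higher, median -2.06). Rpl11, Rps13 and Rps12 had no UMI in CNP members, which makes them at least 23.2-fold, 22.8-fold and 15.6-fold lower than in WT against a floor of 3 counts over the CNP members. Rps7 had 3 UMIs against 931 (ratio 0.0373, 95% counting interval 0.0077 to 0.109). The study names Rps7, Rpl11, Rps13 and Rps12 among the key genes of a component it labels a batch effect. It proposes that this component reflects the sequencing platform. The CNP libraries and every WT library of the fit but WT3 were read on a HiSeq. Whether such an effect enters here was not tested. The whole CNP libraries held 11, 9 and 4 UMIs of Rpl11, Rps13 and Rps12, so the low counts were not particular to members. Ribosomal protein transcripts made up 0.736% and 0.817% of UMIs in CNP members and 1.36% to 3.83% in WT members. The chaperone gene Hsp90aa1 was at 476 and 419 CPM against 1907 to 2936 CPM (median 2162), with no overlap (log2 difference -2.39, SE 0.21, adjusted p = 2.9e-24, edgeR), and at 360 ± 49.7 CPM (SD, n = 2) over all CNP barcodes. Ybx1, a cold-shock-domain RNA-binding protein gene, was at 2365 and 2174 CPM against 3075 to 3944 CPM in WT (log2 difference -0.70), and Cul4a-/- members had a similar level (2307 and 2358 CPM). Smcp (log2 difference -1.31), Oaz3 (-1.45) and Cox7c (-2.07) were also lower. The Oaz3 call was lost in 10 of 22 alternatives and that of Ruvbl2 in 7. The X-linked share of CNP members was 0.383% and 0.2996%, inside the WT range (exact permutation p = 0.945). Their DUF622 share was 0.0561% in the first library and 0.0248% in the second, which lay below every WT library (lowest 0.0387%; exact permutation p = 0.182).

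**Figure D5:**
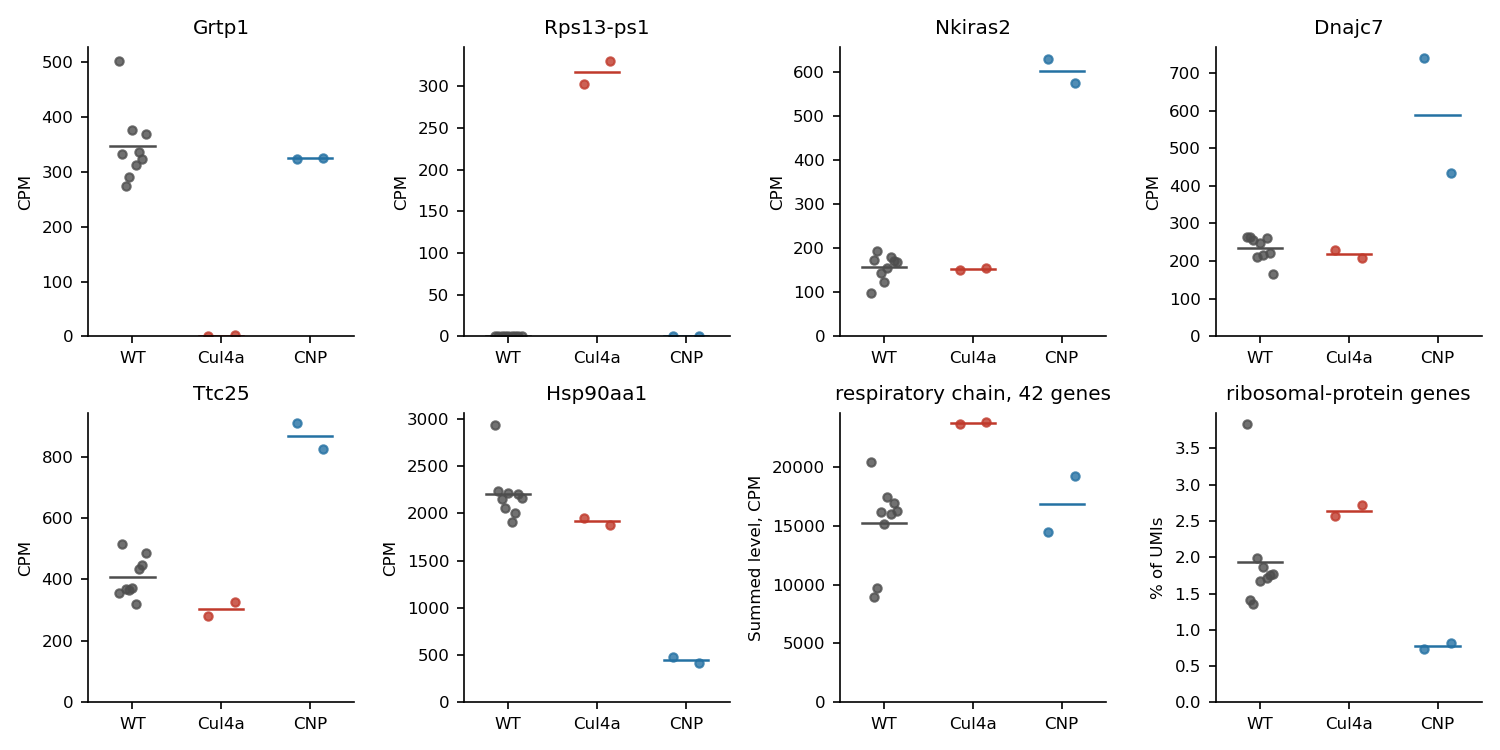
Levels in members of each mechanical library of WT, Cul4a-/- and CNP for 6 genes (CPM), the summed respiratory chain genes (CPM) and ribosomal protein transcripts (percent of UMIs); points are libraries and lines are group means. Grtp1 and Rps13-ps1 separate the Cul4a-/- libraries, and Nkiras2, Dnajc7, Ttc25 and Hsp90aa1 the CNP libraries.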

How the data were processed

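Per the labels and methods, the authors dissociated testes, made Drop-seq libraries, aligned reads to mm10 (GRCm38) with STAR 2.5.3a after bcl2fastq, and deposited for each library the unnormalized UMI counts, with genes as rows and barcodes as columns. Libraries covered by the rule held 357235 to 9745302 UMIs, and member sums of the libraries compared held 64397 to 617174 UMIs.

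Counts were summed per library and class and fitted with edgeR 4.0.16 (glmQLFit, glmQLFTest, TMM) in R 4.3.3, keeping genes that reached 5 counts over the fit and libraries with 10 or more barcodes in a class. A call is a Benjamini-Hochberg adjusted p under 0.05. Single values per library were tested by exact permutation in Python 3.11.15 (scipy 1.17.1), two-sided. No doublet caller was run. Classes of a library come from 1 suspension, so the library was the block. Over 9 libraries their deviations correlated at 0.192 to 0.695 (pachytene-marked) and 0.196 to 0.688 (round-spermatid-marked). On simulated counts, 93% (against pachytene-marked), 89% (round-spermatid-marked), 52% (Cul4a-/-) and 23% (CNP) of genes changed by 1 on the log2 scale were recovered. Of those changed by 2, 100%, 100%, 100% and 85% were. The changed genes were drawn from the more abundant genes only. Every gene had the same fixed spread, and no library effect was simulated. These rates therefore do not cover the rarer genes tested.

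Genes were named from lists and, per comparison and direction, as the 10 of smallest p among called genes whose difference had one sign in every pair, or whose mutant libraries lay beyond every WT library. Members and lists were chosen with earlier results of these data known. Alternatives were DESeq2 1.42.0, library totals, other count filters, HiSeq libraries, all libraries, at least 5 rule UMIs, members without other cells' markers, thinning to 500 UMIs, a class threshold of 0.5%, a replicate block and each library left out. Of 29244 gene symbols, 26843 matched GENCODE vM21 for chromosomes.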

Additional observations from a re-analysis of the deposited data

Results flagged for a closer look

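Among 133 sets of values over the 9 mechanical WT libraries, 6 had a library whose highest or lowest value stood apart from the rest, and chance alone does so in about 1 set in 20. In the middle part of the ranking the Ssxb level of WT6 was 111 CPM, and the next was 49.4 CPM. WT3, the library read on a MiSeq, gave 3 of the values: 8386 CPM for the summed genes of postmeiotic transcription control (next 9385 CPM), 66.0 CPM for the Leydig markers (next 31.0 CPM) and 82.5 CPM for Cks2 (next 39.3 CPM). Akap4 stood at 186 CPM in WT4 (next 121 CPM) and the Sertoli gene Aard at 39.9 CPM in WT6 (next 10.8 CPM). Their causes were not tested.

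The thresholds were also met in libraries of sorted cells, which no comparison used. Of 292 deep barcodes of spermatogonia sorted from Pouf51-EGFP males (Pou5f1-EGFP in the study's methods) at postnatal day 7, 28 passed, 25 of them with at least 2 UMIs over spermatogonial or somatic markers. Of 65 deep barcodes of the library labelled secondary spermatocytes 4 passed, of 34 of sorted primary spermatocytes 3 and of 100 of sorted spermatids 2. Of the 65, 26 were round-spermatid-marked and 18 late-spermatid-marked, so the markers of that library go against its label in most barcodes. Each sort had 1 library.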

How the results depend on the processing

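The count of genes called against pachytene-marked barcodes was 2465 by DESeq2 and 3280 to 3671 with a library left out, and against round-spermatid-marked barcodes 6679 to 7000. Cul4a-/- calls fell from 1077 to 271 by DESeq2, 648 with edgeR's own count filter and 62 with members thinned to 500 UMIs, and ranged from 368 (without the first Cul4a-/- library; 438 without the second) to 1185 with a library left out. CNP calls fell from 108 to 44, 52 and 26 in the same settings and ranged from 42 (without the first CNP library; 67 without the second) to 126. Calls with a mutant group of 1 library assume that it varies like the others. The replicate numbers of WT and mutants share a number only. The setting with a replicate block also changed the WT group to the enzymatic WT1 and WT2 alone, with 2 and 8 members. It left 23 calls in Cul4a-/- and 7 in CNP. Under it Atp5j (0.57), Smcp (0.61) and Ybx1 (0.092) in CNP and Acrv1 in Cul4a-/- (0.026) turned to higher. The block and the changed WT group cannot be told apart in this setting. Without the library block, 3371 and 7244 genes were called in the paired comparisons. Pttg1 turned to higher against pachytene-marked barcodes with a class threshold of 0.5% (0.012). Gsg2 turned to higher against round-spermatid-marked barcodes with edgeR's own filter (0.10) and library totals (0.32). With late spermatids out of the denominator, the difference in member share was -7.03 in Cul4a-/- (exact permutation p = 0.0364) and turned to -3.59 in CNP. Over all deep barcodes the differences of -2.37 and 4.18 ranged from -2.81 to -1.78 and from 3.66 to 4.77 with a library left out. The X-linked difference between WT members and Mlh3-/- barcodes passed the threshold with HiSeq libraries (0.158, exact permutation p = 0.0444), at least 5 rule UMIs (0.1501, p = 0.0180) and without other cells' markers (0.259, p = 0.0091). The other single values kept their sign and side of the threshold in 32 recomputations and in 85 with a library left out, and named genes did so in 1183 and 1254, with 117 and 57 no longer past it. The cause was not tested. Library totals, leaving out WT4 and WT5 together and the alternatives of the family tests were chosen after seeing the data. The CNP group had the fewest members, 75 barcodes, which limits what its comparison can show.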

Other observations

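Of 14 genes of the CUL4 ligase and its adaptors and substrates, 2 were higher and 3 lower in WT members than in pachytene-marked barcodes (median 0.14). Against round-spermatid-marked barcodes 6 were higher and 3 lower. Of all genes tested, 27.7% and 49.2% were called in these comparisons, so the counts say little about the list. Hsp90b1, the chaperone of the endoplasmic reticulum, was at 1749 ± 147 CPM in members and 474 ± 65.9 CPM in round-spermatid-marked barcodes (SD, n = 9). 1700015E13Rik (122 ± 29.8 against 1065 ± 97.1 CPM) and Ccer1 (217 ± 55.8 against 1150 ± 150 CPM) were among the genes with the smallest p that were lower in members, with no overlap between the libraries.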
